A study of Homo sapiens with 6 samples.

Results

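S100P and 9 further S100 genes (S100A4, S100A6, S100A8, S100A9, S100A10, S100A11, S100A13, S100A16 and S100B) were examined in a human leukaemia line with and without a mutation of the splicing factor SF3B1. They are 10 of the 62111 genes listed, and were selected by symbol because S100P was much lower in the mutant libraries. Differences of these 10 genes between the genotypes are therefore a description and carry no test. RNA was sequenced from K562, an established line from chronic myeloid leukaemia in blast crisis. The WT group has 3 libraries of cells whose SF3B1 is wild-type, and the K700E group has 3 libraries of SF3B1-K700E cells, with a substitution in the U2 snRNP protein that helps to select the branch point of introns. No treatment or time point is labelled for either group. How the mutation was introduced, whether the mutant cells are a single clone and whether replicates are separate cultures is not given here by any label, so p-values measure the spread between these libraries. Levels are in TPM, which divides reads by gene length and scales each library to the same total of 1000000.

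S100 proteins are small calcium-binding proteins that mostly work as dimers. Each subunit carries a pair of EF-hands, helix-loop-helix motifs whose loops hold calcium. Binding of calcium opens a surface that takes up partner proteins such as annexins, cytoskeletal proteins and p53, and some S100 proteins are secreted and act on receptors such as RAGE (AGER). S100P was first found in placenta and is studied as a marker of several carcinomas. S100A8 and S100A9 form calprotectin, an abundant protein of neutrophils and monocytes.

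The calcium loop of the C-terminal EF-hand is shown because it is the feature that joins these genes, and because S100A10 departs from it. The 36 coding bases are read from GENCODE transcripts, with capitals on the codons of loop positions 1, 3, 5 and 12, which provide calcium ligands.
S100P: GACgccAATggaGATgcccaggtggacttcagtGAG
S100A11: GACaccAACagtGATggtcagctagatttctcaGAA
S100A4: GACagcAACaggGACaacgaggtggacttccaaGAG
S100A13: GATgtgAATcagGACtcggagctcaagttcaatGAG
S100A16: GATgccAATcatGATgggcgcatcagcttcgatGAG
S100A10: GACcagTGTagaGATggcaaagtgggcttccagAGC
S100A10 kept 2 of the 4 calcium codon types (aspartate, asparagine or serine at positions 1, 3 and 5, glutamate at 12), and each of the other 9 genes kept 4. S100A10 is known as the member of the family that no longer binds calcium. The encoded proteins had 90 residues (S100A6) to 114 residues (S100A9), and S100P had 95. The share of residues identical to S100P was highest for S100B (50%) and S100A10 (45.7%) and lowest for S100A16 (27.4%).

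S100P lies on chromosome 4, S100B on chromosome 21, and the other 8 genes on chromosome 1. The bases before the start site are shown for S100P and for S100A11, the 2 members with the highest mean levels, from RefSeq on GRCh38.p14, with motif matches in capitals.
S100P, chr4:6693628-6693877, plus strand: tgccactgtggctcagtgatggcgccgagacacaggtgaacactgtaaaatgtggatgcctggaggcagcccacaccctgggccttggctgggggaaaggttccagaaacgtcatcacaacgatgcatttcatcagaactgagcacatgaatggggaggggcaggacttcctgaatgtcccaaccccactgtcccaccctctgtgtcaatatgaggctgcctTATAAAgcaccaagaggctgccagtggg
S100A11, chr1:152037005-152037254, minus strand: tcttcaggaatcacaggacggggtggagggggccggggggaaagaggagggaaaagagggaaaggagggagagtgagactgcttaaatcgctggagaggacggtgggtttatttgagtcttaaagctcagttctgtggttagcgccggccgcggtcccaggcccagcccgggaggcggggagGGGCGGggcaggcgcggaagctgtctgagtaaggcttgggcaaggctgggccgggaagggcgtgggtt
The search covered these 250 bases and 50 after the start, on both strands. S100P held a TATA box (TATAAA) that begins at base -28 and S100A11 an SP1 site (GGGCGG) that begins at base -68. Over 34943 promoters of this length, 11.6% held TATAAA and 44.9% held GGGCGG. The other motifs searched were CCAAT (34.6% of promoters), AGATAA or TGATAA (16.3%), TGACGTCA (1.84%), TTCNNNGAA (7.66%) and the glucocorticoid response element (0.0029%), and neither gene matched any of them. Neither match overlapped another motif.

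The libraries held 104642332 to 136588117 recovered reads. WT replicate 3 lay between the other WT libraries in 75.9% of the 15493 genes whose mean reached 1 TPM, while the share was 10.2% and 13.9% for WT replicates 1 and 2 and 25.7% to 46.3% for the K700E libraries. Whether WT replicate 3 is independent of the other WT libraries was not tested; if it is not, n = 3 overstates the WT group and the SEs and adjusted p-values are too small. On log2(TPM + 1), the median gene was 0.13 higher in K700E. SF3B1 itself measured 143.5, 98.9 and 114.6 TPM in WT, against 160.5, 135.7 and 117.7 TPM in K700E, which does not check the substitution. All 8 erythroid markers reached a mean of 1 TPM, with summed levels of 2458 to 4307 TPM in WT, against 3436 to 4654 TPM in K700E. Of 9 monocyte and granulocyte markers, 4 reached it (LYZ, ITGAM, CSF3R and FCGR3B), and CD14, CSF1R, FCN1, MPO and ELANE did not. Their summed levels were 123 to 147 TPM in WT and 70.2 to 190.4 TPM in K700E. LYZ alone averaged 116 TPM in WT and 112 TPM in K700E. Of 6 epithelial markers, 4 reached it; their summed levels were 381 to 662 TPM in WT, against 851 to 1162 TPM in K700E, KRT5 was without a read and CDH1 was under 1 TPM. Stromal markers (2 of 5; COL3A1, PDGFRB and DCN under 1 TPM) summed to 1.98 to 3.09 and 6.31 to 12.1 TPM, and lymphoid markers (2 of 5) to 6.18 to 10.3 and 5.89 to 10.6 TPM. The part of these markers in the S100 values was not tested. The WT and K700E libraries stand in separate deposited tables, so a difference in how the tables were made cannot be told apart from genotype.

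S100P (ENSG00000163993, GRCh37 chromosome 4, 6695605 to 6698897, plus strand) measured 213, 479 and 313 TPM in WT replicates 1 to 3 and 109.6, 76.1 and 86.0 TPM in K700E replicates 1 to 3. Every K700E library lay below every WT library. The means were 335 ± 134 TPM (WT) and 90.6 ± 17.2 TPM (K700E; SD, n = 3 each), a difference of -1.82 (SE 0.29) on log2(TPM + 1) and -1.94 from the median gene. Without WT replicate 3 the difference was -1.82. These values rest on 4366, 13023 and 8550 reads in WT and 2305, 1829 and 2135 reads in K700E, so counting error is small beside the spread between libraries. The WT libraries spread 2.24-fold from lowest to highest and the K700E libraries 1.44-fold. Ranked by TPM among all genes, S100P stood at places 581, 237 and 363 in WT and 1435, 1941 and 1732 in K700E. In RNA from whole cultures, fewer cells with S100P transcripts and fewer transcripts per cell cannot be told apart.

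**Figure D1:**
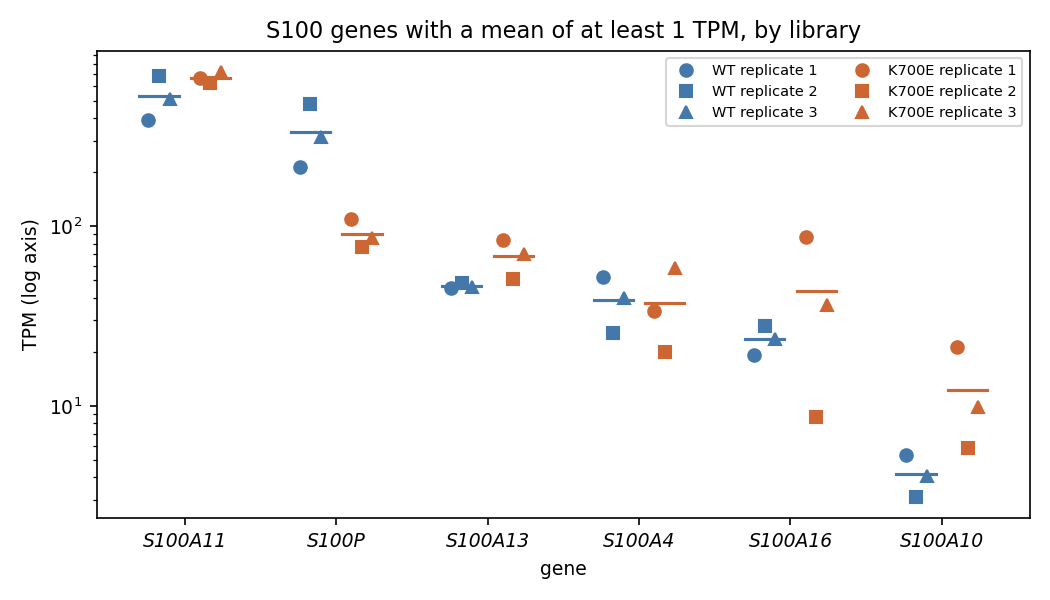
TPM on a log axis of the 6 S100 genes whose mean reached 1 TPM, with 1 point per library, in WT (3 libraries) and K700E (3 libraries). S100P is the member whose K700E points all lie below its WT points, while S100A10 and S100A13 have all K700E points above.

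S100A11, which pairs with annexin A1, had the highest mean of the members in both genotypes. It measured 389, 688 and 514 TPM in WT, against 670.4, 624 and 722 TPM in K700E. WT replicate 2 lay inside the K700E range and the groups overlapped, with a difference of 0.38 (SE 0.20) on log2(TPM + 1). That difference was 0.17 without WT replicate 1 and 0.59 without WT replicate 2. Within each library, the ratio of S100P to S100A11 was 0.549, 0.696 and 0.610 in WT and 0.163, 0.122 and 0.119 in K700E. The ratio averaged 0.618 ± 0.0735 in WT and 0.135 ± 0.0248 in K700E (SD, n = 3 each). The ratio is unaffected by how a library is scaled, and WT replicate 2, where both genes were highest in WT, had the highest ratio. S100A11 shares at least 50 identical bases with 1 other gene's transcript, AC006483.1, so some of its reads may be uncertain. S100P, S100A4, S100A10 and S100A16 shared no stretch of that length with another gene.

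**Figure D2:**
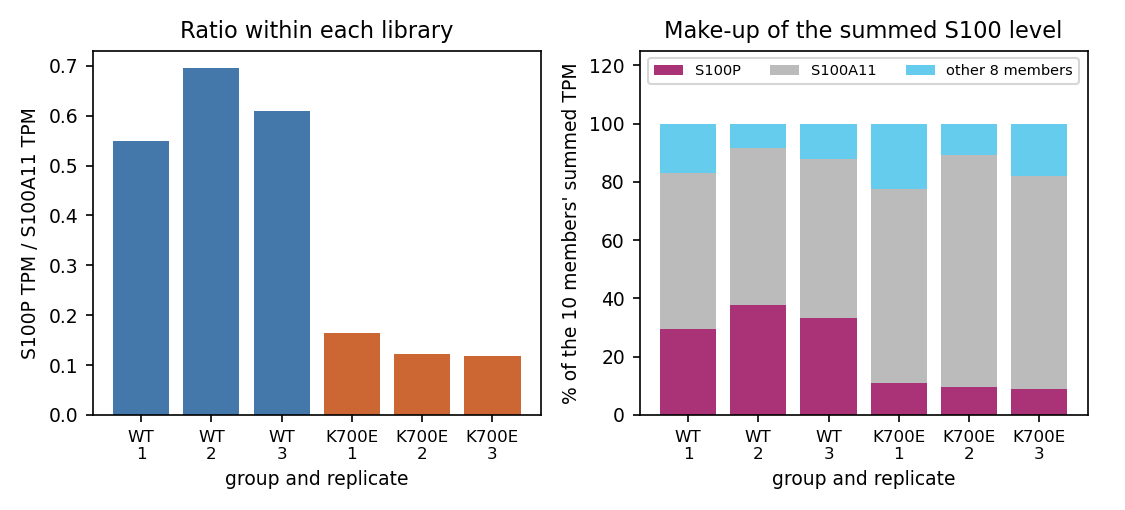
Left, the ratio of S100P TPM to S100A11 TPM in each library. Right, the percent of the 10 members' summed TPM that came from S100P, S100A11 and the other 8 members. The ratio was 0.549 to 0.696 in WT and 0.119 to 0.163 in K700E.

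S100P made up 29.5%, 37.6% and 33.3% of the summed TPM of the 10 members in WT, against 10.9%, 9.68% and 8.74% in K700E. S100A11 made up 53.7%, 54.1% and 54.6% in WT and 66.6%, 79.4% and 73.4% in K700E. The summed level of all 10 genes was 725, 1272 and 941 TPM in WT, against 1007, 786 and 984 TPM in K700E, and these ranges overlapped. Without S100P the sum was 511, 794 and 627 TPM in WT, against 897, 710.0 and 898 TPM in K700E, also with overlap.

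S100A10 (ENSG00000197747), the p11 partner of annexin A2, measured 5.32, 3.12 and 4.04 TPM in WT, against 21.2, 5.82 and 9.81 TPM in K700E. Every K700E library lay above every WT library. The means were 4.16 ± 1.11 and 12.3 ± 8.01 TPM (SD, n = 3 each), a difference of 1.22 (SE 0.41) on log2(TPM + 1). Without K700E replicate 1, the highest library, this difference was 0.76. The K700E libraries spread 3.65-fold, and 3.20% of tested genes spread more widely among them.

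S100A13 (ENSG00000189171), which takes part in the release of FGF1 and interleukin 1 alpha, measured 45.3, 48.4 and 46.0 TPM in WT, against 83.9, 50.7 and 70.1 TPM in K700E. The WT values lay close together, within 1.07-fold, and all K700E values lay above them. The difference was 0.51 (SE 0.19) on log2(TPM + 1). Its exons share 318 of 917 bases with ENSG00000271853 on the same strand, a gene under 1 TPM, and 28 bases with S100A1 on the opposite strand, so reads there may be assigned to either gene. It also shares a stretch with AL162258.1, 99.5% identical over 207 bases.

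S100A4, known as metastasin and a partner of non-muscle myosin, measured 52.2, 25.3 and 39.6 TPM in WT, against 33.6, 20.05 and 58.4 TPM in K700E. The groups overlapped at both ends, with a difference of -0.13 (SE 0.40) on log2(TPM + 1). S100A16 measured 19.1, 27.9 and 23.6 TPM in WT, against 86.5, 8.63 and 36.3 TPM in K700E. The K700E libraries lay on both sides of the WT range and spread 10.02-fold, more than all but 0.697% of tested genes. The difference of S100A16, 0.38 (SE 0.70), was -0.36 without K700E replicate 1. For S100A4 the sign also turned, to 0.10 without WT replicate 1 and to 0.24 without K700E replicate 2.

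**Figure D3:**
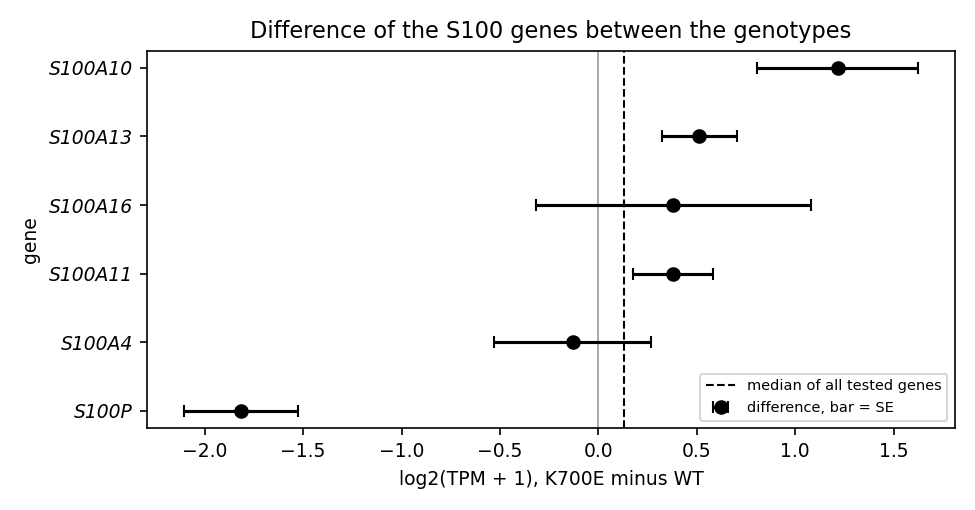
Difference between K700E and WT on log2(TPM + 1) for the 6 S100 genes whose mean reached 1 TPM, with bars of 1 SE. S100P lies at -1.82 and S100A10 at 1.22, and the dashed line marks the median gene at 0.13.

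Over all tested genes, limma called 0.232% lower and 1.15% higher in K700E. Of these 6 genes, 1 was called lower and 0 higher. The 1 is S100P, which was chosen because it was lower, so nothing is read from that count. The call was kept in 9 of 15 alternatives, and in 2 of 6 fits with a library left out. K700E lay above WT without overlap for 2 of them, against 19.0% of all tested genes, and below for 1, against 4.99%. The median difference of the 6 was 0.38, beside 0.13 for all tested genes. K700E replicate 2 was the lowest of its group for 6 of 6 genes, as it was for 31.7% of all tested genes. In WT, replicates 1 and 2 held the highest and the lowest value of each of the 6 genes, in either order.

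In order of level, WT ran S100A11, S100P, S100A13, S100A4, S100A16, S100A10, then the 4 members under 1 TPM. The ranges of S100A11 and S100P overlapped, although S100A11 was above in 3 of 3 libraries. Those of S100A13, S100A4 and S100A16 also overlapped from neighbour to neighbour, while S100P stood clear of S100A13 and S100A16 clear of S100A10. In K700E, S100A11 stood clear of S100P. S100P then overlapped with S100A13 in range, although it was above it in 3 of 3 libraries.

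The 4 remaining members were near the limit of detection. S100A6 (calcyclin) measured 0.381, 0.511 and 0.285 TPM in WT, against 0.423, 0.0463 and 0.448 TPM in K700E, with overlap. S100A8 had 0, 0 and 3 reads in WT and 20, 2 and 16 in K700E. Where it measured 0, 3 reads would be worth 0.131 TPM in WT replicate 1 and 0.0984 TPM in WT replicate 2. S100A9, its partner in calprotectin, had 0, 6 and 6 reads in WT and 14, 10 and 6 in K700E. The values of S100A9 in TPM were 0, 0.181 and 0.181 in WT and 0.547, 0.342 and 0.199 in K700E, so it was the 1 of these 4 genes with every K700E library above every WT library. Of 23368 genes under 1 TPM with a read in any library, 2796 showed that pattern. For S100A9 it rests on library scaling in K700E replicate 3, which had 6 reads, as did WT replicates 2 and 3. S100B, best known from glial cells, had 2 reads in WT replicate 1 and 0 in the other 5 libraries, where 3 reads would be worth 0.0287 to 0.0372 TPM. In every library more genes had 2 recovered reads than 1 (2994 against 1139 in WT replicate 1). Whether both mates of a fragment were counted was not tested. If they were, 2 reads can be 1 fragment, and a level of 0 allows more than the worth of 3 reads given here.

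Of 18 further genes of the S100 and fused S100 family, S100A1 and S100A5 reached a mean of 1 TPM, and neither passed the threshold (limma, 0 at an unadjusted p under 0.05, and 0 past the threshold by limma-voom). S100A1, a regulator of calcium handling in muscle, measured 20.2, 40.8 and 33.4 TPM in WT, against 17.9, 7.14 and 33.2 TPM in K700E (limma adjusted p = 0.458). The groups overlapped. S100A5 measured 1.12, 1.26 and 1.39 TPM in WT, against 3.28, 0.975 and 2.01 TPM in K700E (limma adjusted p = 0.533), also with overlap. Of 12 family genes under 1 TPM with a read, 5 had every K700E library above every WT library (TCHH, S100A7A, S100A7, S100A2 and S100Z), beside 2796 of all 23368 genes under 1 TPM with a read. For some genes at this level a few reads can set the order of libraries. TCHH, for example, had 2, 0 and 4 reads in WT, against 4, 4 and 16 in K700E. Of the 5, S100Z had the most reads in K700E, 110, 38 and 91, against 10, 6 and 10 in WT. A further 4 family genes were without a read in any library.

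A list of 35 genes held partners and receptors of S100 proteins and transcription factors reported at the S100P promoter. Of these, 29 were tested, with a median difference of 0.12. PLAT was the 1 gene called higher, beside 1.15% of all tested genes, and 0 were called lower, beside 0.232%. PLAT encodes tissue plasminogen activator, whose activity at the cell surface S100A10 is known to assist. It measured 0.643, 0.488 and 0.787 TPM in WT, against 2.60, 2.84 and 2.65 TPM in K700E, a difference of 1.18 (SE 0.15, limma adjusted p = 0.017). All 3 K700E libraries lay above all 3 WT libraries. Its mean reached 1 TPM only through K700E, so it was tested because it was high there, and the call was lost with no filter on low values. Without WT replicate 3 the adjusted p was 0.105, the highest over its alternatives.

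The known partners of S100P did not pass the threshold. Ezrin (EZR), which links membrane and actin, measured 248.9 ± 35.7 TPM in WT, against 286 ± 14.6 TPM in K700E (SD, n = 3 each; limma adjusted p = 0.498), with a 95% interval of the log2 difference of -0.11 to 0.53. For IQGAP1, a scaffold of the actin cytoskeleton, that interval was -0.41 to 0.39. It was -0.32 to 0.30 for CACYBP, a partner of S100A6 and S100P in ubiquitin-dependent decay, and -0.34 to 0.85 for S100PBP, a nuclear protein that binds S100P. AGER, the receptor RAGE, measured 22.3, 24.8 and 26.4 TPM in WT, against 19.8, 21.7 and 27.1 TPM in K700E (limma adjusted p = 0.791). The other receptors tested, BSG (basigin), CD33 and LY96, gave limma adjusted p-values of 0.930, 0.857 and 0.758, and TLR4, ALCAM and CD36 were under 1 TPM. Next to PLAT, the smallest limma adjusted p-values of the list belonged to STAT3 (0.158) and AHNAK (0.232). STAT3, listed as a transcription factor reported at the S100P promoter, was higher by 0.52 (SE 0.15) on log2(TPM + 1). AHNAK, a very large protein bound by the S100A10 and annexin A2 complex, was lower by 0.56.

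Of 12 annexins, calcium-dependent membrane proteins that several S100 proteins bind, 9 were tested and 0 passed by limma or by limma-voom. By limma, 3 of the 9 had an unadjusted p under 0.05, beside 2563 of all 15493 tested genes. ANXA6 came closest, at 60.8, 60.6 and 62.1 TPM in WT, against 90.0, 85.1 and 94.3 TPM in K700E (limma adjusted p = 0.076). Its groups did not overlap. The median difference of the annexins was 0.14, beside 0.13 for all genes.

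Of 54 other EF-hand genes, 41 were tested and the median difference was 0.19. CALB2 was the 1 gene called higher, beside 1.15% of all tested genes, and 0 were called lower, beside 0.232%. CALB2 encodes calretinin, a calcium buffer of neurons and mesothelium. It measured 0.628, 0.826 and 0.589 TPM in WT, against 7.49, 2.71 and 4.47 TPM in K700E, a difference of 1.73 (SE 0.29, limma adjusted p = 0.039). Like PLAT, it reached a mean of 1 TPM only through K700E. It was past the threshold in 4 of 14 alternatives and was not with no filter, and the adjusted p was 0.182 without WT replicate 3. CETN2, a centrosome protein, measured 28.5 ± 6.26 and 48.6 ± 1.15 TPM (SD, n = 3 each), with a limma adjusted p of 0.097.

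**Figure D4:**
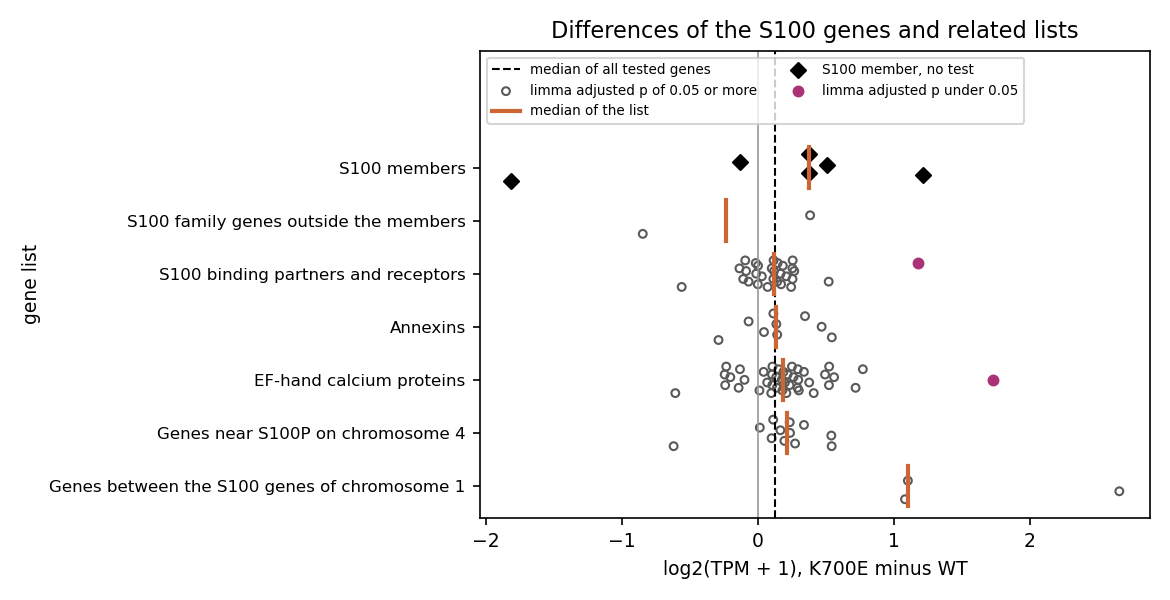
Difference between K700E and WT on log2(TPM + 1) for each tested gene of the lists, by row. Filled round points passed limma at an adjusted p of 0.05, PLAT at 1.18 and CALB2 at 1.73; black diamonds are the 6 S100 members, which carry no test.

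Genes next to S100P were examined within 500 kb on either side on GRCh37. Of 32 listed, 12 were tested and 0 passed by limma or by limma-voom, with a median difference of 0.22. By limma, 3 of the 12 (LINC02481, LINC02482 and ENSG00000170846) had an unadjusted p under 0.05, beside 2563 of all 15493 tested genes. Of the 12, 3 (LINC02482, MRFAP1L1 and ENSG00000287104) lay higher in every K700E library than in every WT library, beside 19.0% of all tested genes. LINC02481 was the 1 that lay lower in every K700E library, beside 4.99% of all tested genes. This long non-coding RNA lies on the minus strand at 6689175 to 6692246. It measured 2.72, 1.87 and 2.44 TPM in WT, against 0.725, 1.23 and 1.65 TPM in K700E, a difference of -0.62 (SE 0.20, limma adjusted p = 0.200). MRFAP1L1 lies on the other side and measured 117.5, 117.0 and 117.1 TPM in WT, against 151.5, 133.8 and 130.7 TPM in K700E, a difference of 0.24 (limma adjusted p = 0.366).

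**Figure D5:**
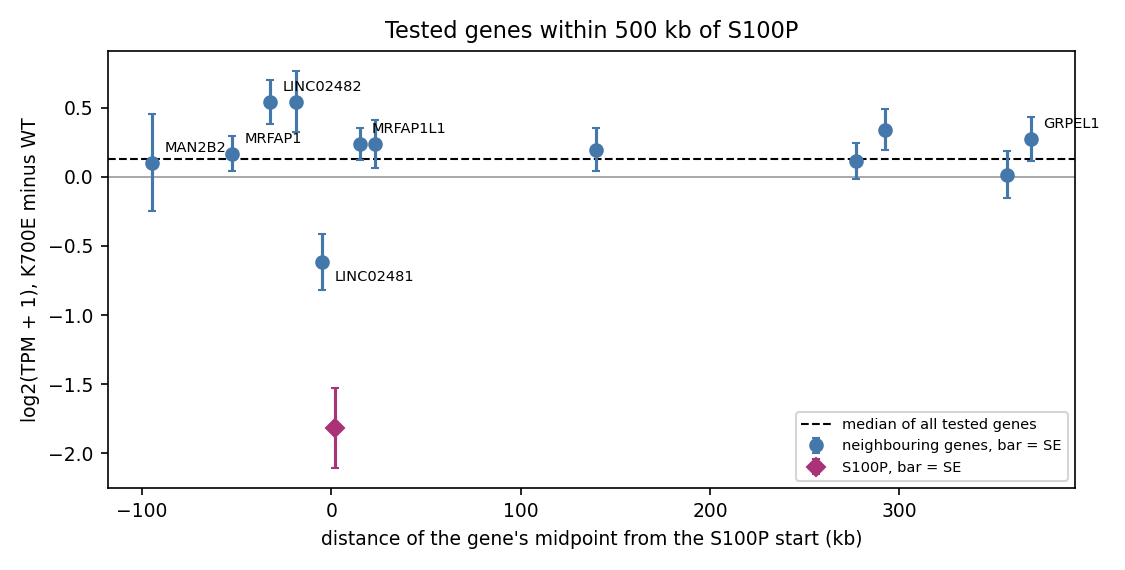
Difference between K700E and WT on log2(TPM + 1), with bars of 1 SE, against the distance of each tested gene's midpoint from the S100P start in kb. S100P lies at -1.82 and LINC02481 at -0.62, and the other 11 genes lie above 0.

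On chromosome 1, the stretch between the first and last S100 gene (151955391 to 153604515 on GRCh37) listed 66 genes outside the family, many of them known as skin barrier genes, and 3 were tested. None passed by limma or by limma-voom. By limma, 2 of the 3 (PRR9 and SPRR2D) had an unadjusted p under 0.05, beside 2563 of all 15493 tested genes. SPRR2D measured 0.963, 5.92 and 3.35 TPM in WT, against 8.45, 8.16 and 5.79 TPM in K700E (limma adjusted p = 0.257), with overlap. PRR9 and PGLYRP4 reached a mean of 1 TPM only through K700E, so they were tested because they were high there. PRR9 measured 0.301, 0.907 and 0.904 TPM in WT, against 30.5, 4.20 and 6.26 TPM in K700E (limma adjusted p = 0.098). PGLYRP4, a peptidoglycan recognition protein, measured 0.508, 0.699 and 0.576 TPM in WT, against 6.44, 0.746 and 1.96 TPM in K700E (limma adjusted p = 0.307). In PRR9, PGLYRP4 and SPRR2D, K700E replicate 1 was the highest library, as it was for S100A10, S100A13 and S100A16. That library was the highest of the K700E group in 47.2% of all tested genes, S100P on chromosome 4 among them.

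The genes whose profiles over the 6 libraries were most like that of S100P were named by the smallest root mean square difference between mean-centred log2(TPM + 1) values, over 12801 genes with a median of 1.06. They were LINC01300 (0.221), SLC18A2-AS1 (0.257), SLC18A2 (0.283), PPBP (0.318) and FCER1G (0.333). The other 5 tested S100 members lay at 1.11 to 1.64. These profiles hold the fall for which S100P was chosen. Genes near it are therefore lower in K700E by that choice, and members without such a fall lie further away. PPBP and SLC18A2 reached a mean of 1 TPM only through WT. LINC01300 measured 4.69, 14.2 and 9.48 TPM in WT, against 1.44, 0.840 and 1.69 TPM in K700E. FCER1G, the signalling subunit of Fc receptors, measured 5.58, 21.8 and 11.6 TPM in WT, against 4.37, 2.18 and 4.72 TPM in K700E. PPBP, a chemokine of platelets, measured 2.50, 2.94 and 2.59 TPM in WT, against 0.137, 0.0900 and 0.0871 TPM in K700E. SLC18A2, a vesicular monoamine transporter, and its antisense RNA cannot be told apart where reads are counted without strand.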

How the data were processed

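RNA was sequenced from 3 WT and 3 K700E libraries of K562. The authors deposited TPM per gene in a table for each genotype, WT with GRCh37 exon coordinates and gene lengths, per the file headers. Tools listed in the submitters' processing notes are featureCounts 2.0.1, TopHat2 2.1, cutadapt 2.10 and DESeq2, with the build hg19. The WT column names have the form that another aligner, STAR, writes, and for the K700E table the aligner and strand setting are not given. TPM times gene length came out as whole multiples of 1 step per library for 100% of values, within 0.01, so each library was scaled alone, with the same gene lengths, which was the condition for comparing the tables. Reads were recovered this way.

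The 15493 genes whose mean reached 1 TPM were fitted in limma 3.58.1 (R 4.3.3) on the log2(TPM + 1) scale, with empirical Bayes trend, two-sided, and Benjamini-Hochberg adjustment at 0.05. The scale understates changes of low genes. The procedure was tested on simulated data. IDs were matched to symbols for 58604 of 62111 genes. Members and lists were chosen with earlier results of these data known. Within a list, the called genes and those of smallest adjusted p up to 4 could be named, with S100P's partners and the receptors; other names were chosen after their values were seen. Alternatives were pseudocounts 0.1 and 5, no filter, a 5 TPM filter, TMM and median-ratio scaling, no trend, each library left out, a replicate block and limma-voom on recovered reads. Promoters came from RefSeq on GRCh38.p14 (9 members had an entry) and coding bases from GENCODE transcripts, joined by gene only. Python 3.11.15, pandas 2.3.3, numpy 2.4.6 and matplotlib 3.10.9 were used. Isoforms were not analysed here.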

Additional observations from a re-analysis of the deposited data

How the results depend on the processing

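Over all genes, limma called 214 genes. It called 0 with no filter on low values (4891 at an unadjusted p under 0.05), 92 with a mean of at least 5 TPM, 67 with a replicate block, and 0 to 182 when a library was left out, with 0 without WT replicate 3 (1462 at an unadjusted p under 0.05). In the EF-hand list, 1 gene was called, but 0 with a pseudocount of 5, with no filter, with the 5 TPM filter, under median-ratio and TMM scaling and with the block, and 0 to 1 when a library was left out. In the partner list, 1 was called, but 0 with no filter, with the 5 TPM filter and with the block, and 0 to 1 when a library was left out. The 5 TPM filter leaves out PLAT and CALB2. The cause of the other changes was not tested.

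The log2 difference of S100P ran from -2.10 to -1.52 over 15 alternatives, both ends coming from leaving out a WT library (replicate 1 and replicate 2). Of 90 member values under alternatives, 90 moved by less than 1 SD, but nothing about stability is read from that count. The 5 TPM filter, no filter, no trend and the replicate block returned the main difference of every member. Leaving out 1 of 3 libraries cannot move a group's mean by 1 SD of that group. The other sign was seen in 3 values. For S100A4 these were 0.10 with WT replicate 1 left out and 0.24 with K700E replicate 2 left out. For S100A16 it was -0.36 with K700E replicate 1 left out. Median-ratio scaling brought the median gene from 0.13 to near 0 and S100P to -1.96.

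Whether replicate numbers pair the samples is not given by the labels. Same-numbered libraries had correlations of deviations of 0.28, -0.19 and 0.30, and not every library correlated best with its own number. Deviations from a mean of 3 libraries depend on each other, so these values cannot settle pairing. Members under 1 TPM rest on at most 25 reads in a library, so depth limits what can be said of them.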
